A study of Mus musculus with 9 samples.

Results

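Tmem26, Abcb1a, Cyfip2, Heg1, Adam23 and Bspry are 6 protein-coding genes, of 42454 in the deposited table, that were picked out by symbol because their values were lower than in wild type in gp91phox-/- and in p47phox-/- macrophages alike. The macrophages were low in Ly6C and positive for MHC class II. They came from mice aged 6 weeks and were sorted out of the lamina propria, the tissue layer beneath the epithelium, of the colon. RNA was sequenced from 3 gp91phox-/- libraries, 3 p47phox-/- libraries and 3 wild-type (WT) libraries. The labels give the genotypes by these names alone, with no Cre, transgene, treatment or strain. They do not state that the libraries of a genotype are separate animals, so the p-values cover the spread among libraries, some of which may be technical. The values that picked the 6 genes are the gp91phox-/- versus WT and p47phox-/- versus WT differences, which are therefore given below as a description without a test. The gp91phox-/- versus p47phox-/- difference was not used to pick them and was tested.

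The phagocyte NADPH oxidase is a membrane enzyme complex that passes electrons from NADPH to oxygen and makes superoxide. Its catalytic subunit in the membrane is gp91phox, the product of Cybb, while p47phox, the product of Ncf1, waits in the cytosol and brings the complex together when the cell is activated. The 6 genes belong to no single pathway. Tmem26 encodes a multi-pass membrane protein, best known as a surface marker of beige adipocytes in mice. Abcb1a encodes a P-glycoprotein, an ATP-driven pump that exports drugs and other hydrophobic compounds from cells. Cyfip2 encodes a subunit of the WAVE regulatory complex, through which Rac1 activates the Arp2/3 complex and actin branching. Heg1 encodes a transmembrane protein that binds KRIT1, a cerebral cavernous malformation (CCM) protein, at endothelial junctions. Adam23 encodes a member of the ADAM family that lacks a working protease site and acts in adhesion, binding integrins and, in brain, the secreted protein LGI1. Bspry encodes a protein with B-box and SPRY domains that binds 14-3-3 proteins and, in kidney epithelium, the calcium channel TRPV5.

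The targeted genes and the sorted identity were checked first. Ncf1 averaged 13039.5 ± 793 normalized counts in gp91phox-/- libraries, 3195 ± 510.4 in p47phox-/- libraries and 9957 ± 918 in WT libraries (SD, n = 3 each), and was lower in p47phox-/- than in WT libraries (log2 -1.65, limma adjusted p = 0.000348). Cybb could not be read, because all 1362 genes of chromosome X were listed at 0 in every library. All 12 macrophage markers were at 597.6 normalized counts or more in every library, but they were not level. Cx3cr1, the fractalkine receptor, ran from 597.6 to 24878 over the 9 libraries. Between gp91phox-/- and p47phox-/- libraries, limma called Cx3cr1, Fcgr1 and Itgam as higher and Cd68 as lower in gp91phox-/-, and against WT it called Fcgr1 as higher in gp91phox-/-. The part of these differences in the results for the 6 genes was not tested. The libraries held 31141107 to 52797368 reads on genes. However, p47phox-/- replicates 2 and 3 had reads on 14323 and 14268 genes, fewer than the 15825 to 18760 of the other 7 libraries. Effect sizes without these 2 libraries are given for the 6 genes and for Abcg3, Actr3, Pecam1 and Rundc3b. That fit leaves p47phox-/- replicate 1 as the only p47phox-/- library, so no test of p47phox-/- is read from it.

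The promoter sequences of 4 of the genes are shown because they carry the 2 patterns described below. Heg1 and Adam23 differed between the knockouts, and no difference between them was detected for Tmem26 and Cyfip2. Each is the RefSeq window (GRCm38.p6), 5′ to 3′ on the gene's own strand, from 250 bases before to 50 bases after a start site. That site is the outermost RefSeq start for Tmem26, and lies 501 bases inside it for Cyfip2, 82 for Heg1 and 174 for Adam23. The positions are chr10:68723496-68723795 (plus strand) for Tmem26, chr11:46312309-46312608 (minus strand) for Cyfip2, chr16:33684216-33684515 (plus strand) for Heg1 and chr1:63445641-63445940 (plus strand) for Adam23. Capitals mark a match to a searched motif, which in these 4 was only the GC box, GGGCGG or CCGCCC.
Tmem26: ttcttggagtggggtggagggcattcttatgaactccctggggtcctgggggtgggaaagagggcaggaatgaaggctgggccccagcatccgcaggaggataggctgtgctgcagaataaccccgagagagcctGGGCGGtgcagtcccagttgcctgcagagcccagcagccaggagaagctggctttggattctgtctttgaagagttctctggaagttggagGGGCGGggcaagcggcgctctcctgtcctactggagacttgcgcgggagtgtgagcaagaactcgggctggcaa
Cyfip2: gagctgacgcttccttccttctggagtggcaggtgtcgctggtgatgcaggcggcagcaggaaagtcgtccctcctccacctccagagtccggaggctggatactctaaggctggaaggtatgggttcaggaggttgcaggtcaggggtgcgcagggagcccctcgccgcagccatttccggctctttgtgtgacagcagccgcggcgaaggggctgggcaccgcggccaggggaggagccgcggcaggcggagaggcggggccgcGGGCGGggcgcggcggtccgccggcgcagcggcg
Heg1: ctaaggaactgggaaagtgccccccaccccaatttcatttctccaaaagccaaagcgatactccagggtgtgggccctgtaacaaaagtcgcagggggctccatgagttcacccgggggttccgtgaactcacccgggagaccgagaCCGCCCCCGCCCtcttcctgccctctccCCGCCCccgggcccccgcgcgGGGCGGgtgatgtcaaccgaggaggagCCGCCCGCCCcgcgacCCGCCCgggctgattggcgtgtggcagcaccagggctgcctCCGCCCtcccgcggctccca
Adam23: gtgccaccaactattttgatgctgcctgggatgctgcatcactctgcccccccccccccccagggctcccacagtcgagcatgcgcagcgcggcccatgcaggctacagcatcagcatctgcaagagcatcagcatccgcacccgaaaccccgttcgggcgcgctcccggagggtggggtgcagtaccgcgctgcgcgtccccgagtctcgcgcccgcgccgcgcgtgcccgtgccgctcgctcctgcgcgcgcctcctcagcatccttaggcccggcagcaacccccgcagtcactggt

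All 6 genes had a RefSeq promoter entry. The searched motifs, on both strands, were AP-1 (TGANTCA), the antioxidant response element (TGACNNNGC), PU.1 (GAGGAA), the GC box (GGGCGG) and the TATA box (TATAAA). The GC box was found 8 times in the Heg1 promoter, some of them overlapping, 2 times in that of Tmem26, and 1 time each in those of Cyfip2 and Bspry. It is present in 35.7% of the 32851 mouse promoters of the same length. The antioxidant response element, present in 12.4% of promoters, was found in the Abcb1a window only, as was PU.1, present in 28.3%. That window is built on a RefSeq start 93.0 kb before the GENCODE start of Abcb1a. Its matches and CpG count may therefore not be those of the promoter in use. The TATA box, present in 13.6%, was found in Bspry only, AP-1, present in 7.81%, in none of the 6, and the Adam23 promoter held none of the 5 motifs. Cyfip2, Heg1, Adam23 and Bspry promoters held 29, 25, 31 and 23 CpG dinucleotides, above the upper quartile of 20 over all promoters, whereas Tmem26 held 9 and Abcb1a 2, against a median of 7. No motif was shared by all 6 promoters. These are matches of letters, and no binding was measured.

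All 6 genes had at least 10 normalized counts in all 9 libraries, so none entered the tests through WT libraries alone. In every one of them each gp91phox-/- library and each p47phox-/- library lay below each WT library. Across the 14404 genes tested, every gp91phox-/- library lay below every WT library in 18.2% and every p47phox-/- library did so in 8.49%; since the genes were picked for this pattern, nothing further is read from it. The limma fit of these 2 comparisons is given for the same descriptive purpose. An adjusted p under 0.05 was reached by 5 of the 6 genes in gp91phox-/- against WT, where 4.53% of all genes reached it as lower, and by 3 of the 6 in p47phox-/- against WT, where 0.5% of all genes did (in either direction, 7.05% and 1.12% of all genes passed in these comparisons). Nothing is read from these counts, which the choice of the genes favoured. Tmem26, Abcb1a and Cyfip2 were within the threshold in both knockouts, Heg1 and Adam23 in gp91phox-/- only, and Bspry in neither. Heg1, Adam23 and Bspry are thus described as lower in both knockouts by the order of their libraries, and not by this threshold. Both comparisons share the WT libraries. The count in p47phox-/- was 2 without p47phox-/- replicate 2, 1 without p47phox-/- replicate 3, WT replicate 1 or WT replicate 3, and 4 without p47phox-/- replicate 1. By DESeq2 it was 6. The count in gp91phox-/- stayed between 4 and 5 whichever library was left out, and was 6 by DESeq2.

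**Figure D1:**
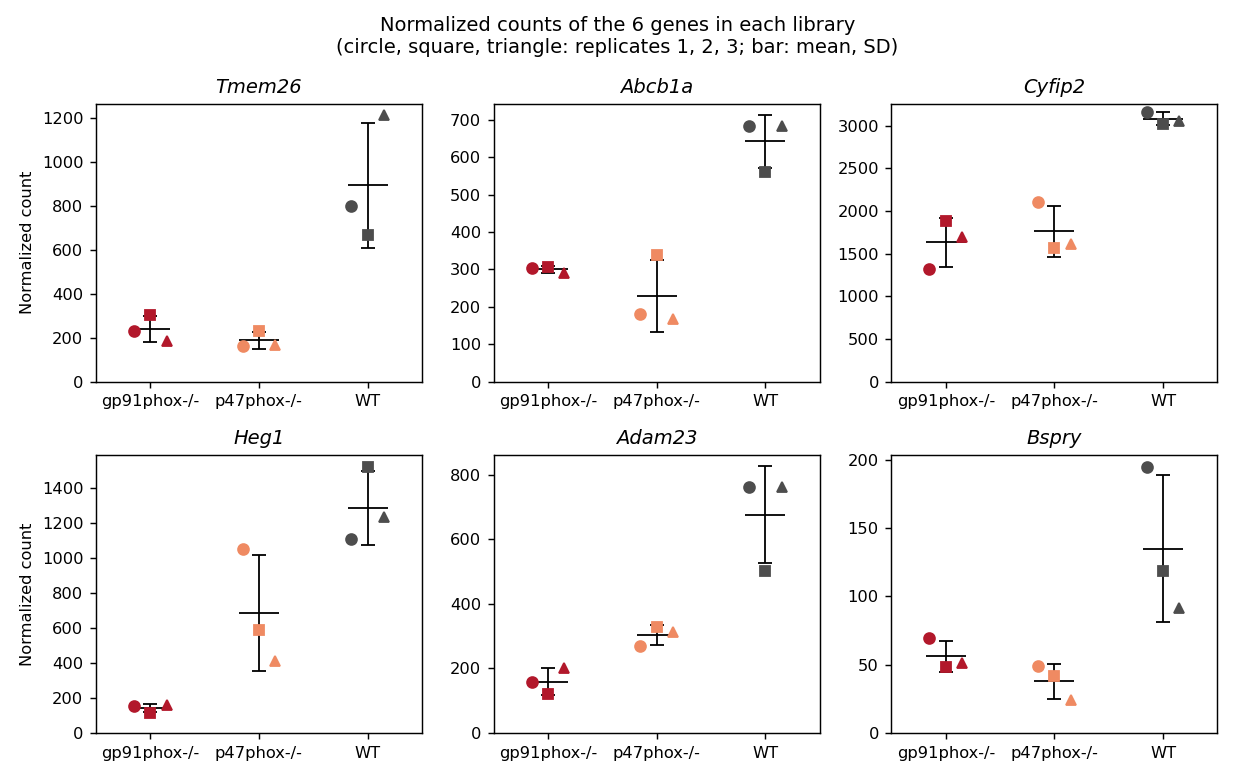
Normalized counts of the 6 genes (vertical axes, linear and starting at 0) in each gp91phox-/-, p47phox-/- and WT library, 3 per genotype, with the mean and SD as bars. Each WT library lies above each knockout library in every panel, and only in Heg1 and Adam23 do the gp91phox-/- libraries also lie apart from and below the p47phox-/- libraries.

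Tmem26 (chr10:68723646-68782650, plus strand, GRCm38) had 232, 303 and 184 normalized counts in gp91phox-/- replicates 1 to 3, 164, 231 and 168 in p47phox-/- replicates 1 to 3, and 800.5, 666 and 1211 in WT replicates 1 to 3. The 2 knockouts occupied one range, well below WT, and the WT libraries were the most spread. The mean was 26.9% of WT in gp91phox-/- and 21.0% of WT in p47phox-/-, or log2 fold changes of -1.87 and -2.22 (SE 0.27). Without p47phox-/- replicates 2 and 3 the p47phox-/- fold change was -2.39.

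Abcb1a (chr5:8660077-8748575, plus strand, GRCm38) had 305, 307 and 289 normalized counts in gp91phox-/- replicates 1 to 3, 180.5, 339 and 167 in p47phox-/- replicates 1 to 3, and 684, 560.3 and 683 in WT replicates 1 to 3. The gp91phox-/- libraries were nearly level, while p47phox-/- replicate 2 stood above the other 2 of its group and above the gp91phox-/- libraries. The mean was 46.7% of WT in gp91phox-/- and 35.6% of WT in p47phox-/-, or log2 fold changes of -1.09 and -1.56 (SE 0.26), the second -1.82 without p47phox-/- replicates 2 and 3. The gene's exons share 553 bases with Gm42686 on the opposite strand, which has no row in the table, and the sources used here do not say whether counting used the strand. RefSeq places the Abcb1a start 93.0 kb before the GENCODE start, so its promoter is not shown.

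Cyfip2 (chr11:46193850-46312859, minus strand, GRCm38) had 1316, 1881 and 1699.6 normalized counts in gp91phox-/- replicates 1 to 3, 2110.1, 1561 and 1618 in p47phox-/- replicates 1 to 3, and 3167, 3025 and 3050.4 in WT replicates 1 to 3. The WT libraries were nearly level, and the 2 knockouts overlapped each other. The mean was 53.0% of WT in gp91phox-/- and 57.2% of WT in p47phox-/-, or log2 fold changes of -0.93 and -0.82 (SE 0.16). Without p47phox-/- replicates 2 and 3 the p47phox-/- fold change was -0.55.

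Heg1 (chr16:33684370-33771576, plus strand, GRCm38) had 152, 115 and 157 normalized counts in gp91phox-/- replicates 1 to 3, 1052, 587 and 409 in p47phox-/- replicates 1 to 3, and 1105, 1516 and 1229.8 in WT replicates 1 to 3. The gp91phox-/- libraries formed a tight low group, and the p47phox-/- libraries spread from near the lowest WT library downward. The mean was 11.03% of WT in gp91phox-/- and 53.2% of WT in p47phox-/-, or log2 fold changes of -3.17 and -1.01 (SE 0.29). The p47phox-/- value depended on the libraries kept. It was -1.38 without p47phox-/- replicate 1, and -0.27 without replicates 2 and 3, which leaves replicate 1 alone. The exons share 318 bases with Gm15657 on the opposite strand, which has no row in the table.

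Adam23 (chr1:63445891-63596276, plus strand, GRCm38) had 157, 119 and 200.4 normalized counts in gp91phox-/- replicates 1 to 3, 268, 328 and 312 in p47phox-/- replicates 1 to 3, and 761, 502 and 763 in WT replicates 1 to 3. The 3 genotypes formed 3 ranges with no overlap, lowest in gp91phox-/- and highest in WT. The mean was 23.6% of WT in gp91phox-/- and 44.9% of WT in p47phox-/-, or log2 fold changes of -2.08 and -1.13 (SE 0.25). Without p47phox-/- replicates 2 and 3 the second was -1.30.

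Bspry (chr4:62480053-62497298, plus strand, GRCm38) was the lowest of the 6 in counts, with 69.2, 48.3 and 51.0 normalized counts in gp91phox-/- replicates 1 to 3, 48.7, 41.3 and 23.8 in p47phox-/- replicates 1 to 3, and 195, 118 and 91.4 in WT replicates 1 to 3. The WT libraries differed among themselves by more than the lowest of them differed from the highest gp91phox-/- library. The mean was 41.6% of WT in gp91phox-/- and 28.1% of WT in p47phox-/-, or log2 fold changes of -1.20 and -1.79 (SE 0.42), the second -1.38 without p47phox-/- replicates 2 and 3. This was the least precise fold change of the 6.

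Levels of different genes were compared per kilobase of exon (GENCODE, GRCm38), on the scale of normalized counts. Cyfip2 was the most abundant in each genotype, at 229.8 per kilobase in gp91phox-/-, 248 in p47phox-/- and 434 in WT libraries. In WT libraries Tmem26 at 169, Abcb1a at 117 and Heg1 at 101 followed, and neighbours among these 3 differed by less than the larger of their SDs. Bspry at 57.3 and Adam23 at 37.7 were lowest and also differed by less than the larger SD. In gp91phox-/- libraries Abcb1a and Tmem26 came next after Cyfip2, at 54.8 and 45.4, and Heg1 and Adam23 were lowest at 11.1 and 8.88. In p47phox-/- libraries Heg1 was at 53.6, above Abcb1a at 41.8 by less than either SD (26.1 and 17.5), with the others between 16.1 and 35.5.

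The threshold was reached as lower in both knockouts by 15 genes, or 0.104% of those tested, among them Tmem26, Abcb1a and Cyfip2, which were chosen on these values. The genes nearest the threshold are given as a description, without a test. Just inside were Cyfip2, Rassf3, a RAS-association protein (log2 -0.51 in gp91phox-/- and -0.73 in p47phox-/-), and Lcn2, a siderophore-binding protein (-2.55 and -4.52). Just outside were Slc13a3, a dicarboxylate transporter (-0.74 and -0.98), Adam23, and Fbxo21, an F-box protein (-1.03 and -1.02). Bspry and Heg1 lay further out.

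The choice of genes required low values in both knockouts, but not that these were at the same level. Heg1 was lower in gp91phox-/- than in p47phox-/- macrophages by 4.48-fold (log2 -2.16, 95% interval -2.81 to -1.52, limma adjusted p = 0.000827). Adam23 was lower by 1.93-fold (log2 -0.95, 95% interval -1.49 to -0.41, adjusted p = 0.0307). In both genes every gp91phox-/- library lay below every p47phox-/- library, a separation that 17.3% of all genes showed. Heg1 and Adam23 thus differed between the knockouts. Of all genes, 9.93% passed in either direction (5.96% lower and 3.97% higher). Nothing is read from the 2 of 6 beside this share, because the 6 genes were picked for low values in the knockouts.

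No difference was detected for the other 4 genes, which does not show that they are at equal levels. The log2 difference, gp91phox-/- minus p47phox-/-, was -0.11 for Cyfip2 (95% interval -0.46 to 0.24, limma adjusted p = 0.698) and 0.34 for Tmem26 (95% interval -0.24 to 0.93, adjusted p = 0.46). It was 0.47 for Abcb1a (95% interval -0.09 to 1.02, adjusted p = 0.278) and 0.59 for Bspry (95% interval -0.33 to 1.52, adjusted p = 0.409). Of these 4 intervals, that of Cyfip2 was the narrowest and that of Bspry the widest. Without p47phox-/- replicate 2, the high library, Abcb1a was higher in gp91phox-/- than in p47phox-/- (log2 0.79, adjusted p = 0.0249; 0.0249 to 0.546 over all alternatives). Without p47phox-/- replicates 2 and 3 together the differences were -0.39 for Cyfip2, 0.52 for Tmem26, 0.73 for Abcb1a and 0.18 for Bspry.

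The Heg1 difference passed in every alternative analysis that kept more than 1 p47phox-/- library. With 1 library left out it ran from log2 -2.48 to -1.80. Without p47phox-/- replicates 2 and 3 together it was -2.90, which rests on p47phox-/- replicate 1, the highest p47phox-/- library for Heg1. The Adam23 difference passed in 13 of 20 alternative analyses. It did not pass without p47phox-/- replicate 2 (adjusted p = 0.0642), p47phox-/- replicate 3 (0.0752), gp91phox-/- replicate 1 (0.0758) or gp91phox-/- replicate 2 (0.13). With 1 library left out, adjusted p ranged from 0.0265 to 0.13. Without p47phox-/- replicates 2 and 3 together the Adam23 difference was -0.78.

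**Figure D2:**
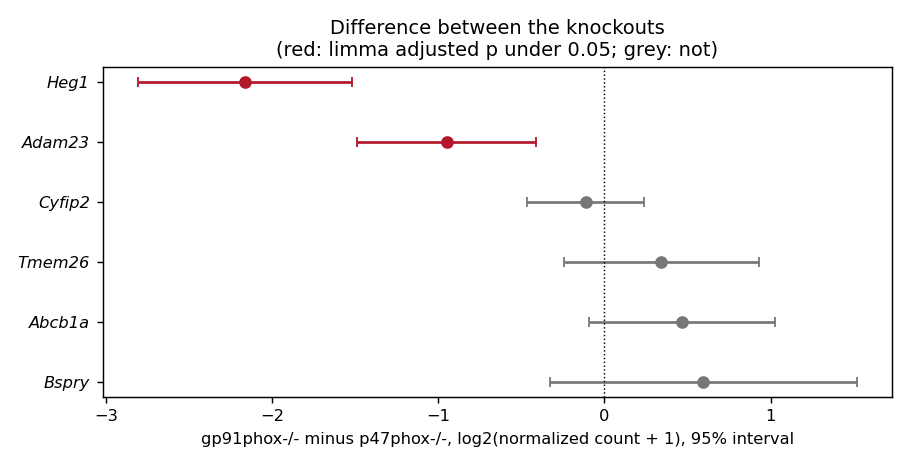
Difference between the knockouts for the 6 genes (horizontal axis, gp91phox-/- minus p47phox-/-, in log2 of the normalized count + 1), with points for the estimate and bars for the 95% interval of the limma fit. Heg1 at -2.16 and Adam23 at -0.95 lie below 0 with intervals that leave 0 out, and the other 4 intervals include 0.

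Closest relatives of Abcb1a, Cyfip2 and Adam23 were read whatever their result. They were not picked for low values, as those genes were. Abcb1b, the other mouse P-glycoprotein gene and the next gene after Abcb1a, averaged 1568 normalized counts in gp91phox-/-, 1341 in p47phox-/- and 1296 in WT libraries, and passed in neither knockout (log2 0.32, adjusted p = 0.461 in gp91phox-/-; 0.08, adjusted p = 0.9 in p47phox-/-). Per kilobase it stood at 196, 168 and 162, above Abcb1a in each genotype. Reads that fit both P-glycoprotein genes could have been assigned to either or dropped, so their values carry that uncertainty. Abcb4, a phospholipid exporter, had low counts, at 9.35, 55.5 and 43.3 in the same order and passed in neither (log2 -1.76, adjusted p = 0.203 in gp91phox-/-; 0.63, adjusted p = 0.735 in p47phox-/-). Cyfip1, which takes the same place in the WAVE complex as Cyfip2, averaged 9668, 9379.6 and 8631 and passed in neither (log2 0.16, adjusted p = 0.537 in gp91phox-/-; 0.11, adjusted p = 0.718 in p47phox-/-). Cyfip1 was the more abundant of the pair in each genotype, at 809.7, 785 and 723 per kilobase. Among the ADAM proteins without protease activity, Adam22 passed in neither knockout (log2 -0.29, adjusted p = 0.404 in gp91phox-/-; -0.35, adjusted p = 0.383 in p47phox-/-). Adam11 was lower in gp91phox-/- (14.3 normalized counts, against 76.2 in WT; log2 -2.24, adjusted p = 0.0373) and did not pass in p47phox-/- (46.1; log2 -0.52, adjusted p = 0.708). That call rests on low counts and was lost without any one of 6 of the 9 libraries. These were gp91phox-/- replicates 1 (adjusted p = 0.117), 2 (0.0622) and 3 (0.086), p47phox-/- replicate 1 (0.0501), and WT replicates 1 (0.0993) and 2 (0.155). The reductions in Abcb1a and Cyfip2 were thus not accompanied by a detected reduction in Abcb1b or Cyfip1; the difference between relatives was not tested.

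**Figure D3:**
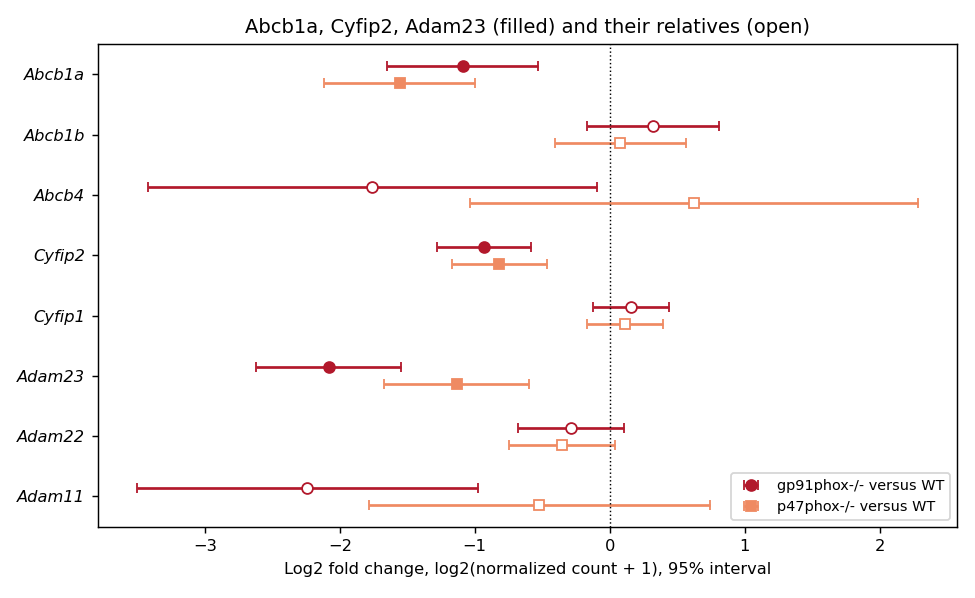
Log2 fold changes (horizontal axis, log2 of the normalized count + 1, 95% interval) in gp91phox-/- (circles) and p47phox-/- (squares) against WT for Abcb1a, Cyfip2 and Adam23 (filled, a description without a test) and their closest relatives (open). Abcb1b and Cyfip1 lie near 0 with intervals that include 0, and the wide intervals of Abcb4 and Adam11 go with means under 80 normalized counts.

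The wider pathways were followed through 5 lists of genes. Their counts stand beside the shares of all genes that limma called. These were 2.53% as higher and 4.53% as lower in gp91phox-/- against WT, and 0.625% and 0.5% in p47phox-/- against WT. In gp91phox-/- against p47phox-/- they were 3.97% and 5.96%. Among 28 ABC transporters, 2 were higher in gp91phox-/- than in WT, Abcg2, a drug and urate exporter (log2 1.03, limma adjusted p = 0.00837), and Tap1, a subunit of the peptide transporter for MHC class I (log2 0.70, adjusted p = 0.012), and 0 were lower. Of all genes, 2.53% passed as higher and 7.05% in either direction in this comparison. In p47phox-/- limma called 0 of the 28 (at an unadjusted p under 0.05, 2 were higher and 3 lower; edgeR called 0 and DESeq2 1). Their median log2 fold changes were -0.11 in gp91phox-/- and -0.075 in p47phox-/-, beside 0.0056 and -0.023 over all genes. Between the knockouts, Abcg3 was higher in gp91phox-/- than in p47phox-/- (log2 0.78, adjusted p = 0.034). The Abcg2 call was lost without gp91phox-/- replicate 2 (adjusted p = 0.0522), and that of Tap1 without gp91phox-/- replicate 2 (0.0598), gp91phox-/- replicate 3 (0.0595) or WT replicate 3 (0.0577). The Abcg3 call was lost without gp91phox-/- replicate 1 (0.117), 2 (0.0861) or 3 (0.0532) or p47phox-/- replicate 2 (0.0885). Without p47phox-/- replicates 2 and 3 together the Abcg3 difference was log2 0.62.

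Among 20 tested genes of the WAVE and Arp2/3 complexes, 1 was higher in gp91phox-/- than in WT, Actr3, a core Arp2/3 subunit (log2 0.53, limma adjusted p = 0.0359), and it was also higher in gp91phox-/- than in p47phox-/- (log2 0.49, adjusted p = 0.0408). Against WT the call was lost without gp91phox-/- replicate 2 (adjusted p = 0.146) or 3 (0.132), p47phox-/- replicate 3 (0.0541), or WT replicate 1 (0.139) or 3 (0.105). Against p47phox-/- it was lost without gp91phox-/- replicate 2 (0.145) or 3 (0.139), p47phox-/- replicate 2 (0.0633) or 3 (0.123), or WT replicate 3 (0.0647). Without p47phox-/- replicates 2 and 3 together the Actr3 difference was log2 0.41. In p47phox-/- limma called 0 of the 20 (3 lower at an unadjusted p under 0.05; edgeR and DESeq2 called 0). The median was 0.13 in gp91phox-/- and 0.026 in p47phox-/-. The medians over all genes were 0.0056 and -0.023, and the difference of the list from the fold changes of Cyfip2 was not tested.

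Among 14 genes of HEG1 and CCM signalling, 2 were higher in gp91phox-/- than in WT, the small GTPases Rap1a (log2 0.58, limma adjusted p = 0.0197) and Rap1b (log2 0.74, adjusted p = 0.0192), which recruit KRIT1. The kinase Stk24, a partner of the CCM complex, was lower (log2 -0.50, adjusted p = 0.0279). Without gp91phox-/- replicate 2 all 3 calls were lost (adjusted p = 0.103, 0.0983 and 0.146 for Rap1a, Rap1b and Stk24), as were those of Rap1a and Rap1b without WT replicate 1 (0.0816 and 0.0886), Rap1a without WT replicate 3 (0.0586) and Rap1b without gp91phox-/- replicate 3 (0.0675). Stk24 was also lost without gp91phox-/- replicate 3 (0.0706), WT replicate 1 (0.0538), 2 (0.101) or 3 (0.074). In p47phox-/- limma called 0 of the 14 (1 higher and 1 lower at an unadjusted p under 0.05; edgeR and DESeq2 called 0). Between the knockouts, where Heg1 differed, limma also called 0 (2 higher at an unadjusted p under 0.05; edgeR and DESeq2 called 1 each). The median was 0.12 in gp91phox-/- and 0.050 in p47phox-/-.

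Among 15 tested ADAM proteins and partners, 2 were lower in gp91phox-/- than in WT, Adam11 and the integrin subunit Itgb3. Itgb3 averaged 75.6 normalized counts in gp91phox-/-, 411 in p47phox-/- and 624 in WT libraries, lower in gp91phox-/- than in WT (log2 -2.96, limma adjusted p = 9.86e-05) and than in p47phox-/- (log2 -2.39, adjusted p = 0.000519). Its means thus followed the same order of genotypes as those of Heg1 and Adam23. However, its p47phox-/- libraries (299 to 526) overlapped its WT libraries (375 to 792), and limma did not call it in p47phox-/- against WT. Adam33, an ADAM with protease activity, averaged 518, 1084 and 390.1 and was higher in p47phox-/- than in WT (log2 1.48, adjusted p = 0.00126) and lower in gp91phox-/- than in p47phox-/- (log2 -1.06, adjusted p = 0.00111). The Itgb3 and Adam33 calls held in every alternative that kept more than 1 p47phox-/- library. The median was 0.097 in gp91phox-/- and -0.20 in p47phox-/-.

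Among 13 tested BSPRY partners and related TRIM proteins, 3 were lower in gp91phox-/- than in WT. Sfn, which encodes 14-3-3 sigma, averaged 173 normalized counts in gp91phox-/-, 695 in p47phox-/- and 613 in WT libraries (log2 -1.85, limma adjusted p = 0.00187 against WT; -1.98, adjusted p = 0.00113 against p47phox-/-). Trim8, a RING-type ubiquitin ligase, was also lower in gp91phox-/- than in WT (log2 -0.77, adjusted p = 0.00142) and than in p47phox-/- (log2 -1.02, adjusted p = 0.00017). Trim25, a ubiquitin ligase of antiviral RNA sensing, was lower than in WT by a smaller step (log2 -0.45, adjusted p = 0.0384). That call was lost without gp91phox-/- replicate 1 (adjusted p = 0.0697), 2 (0.168) or 3 (0.0933), p47phox-/- replicate 3 (0.061), or WT replicate 1 (0.0901), 2 (0.0616) or 3 (0.136). In p47phox-/- limma called 0 of the 13 (1 higher and 1 lower at an unadjusted p under 0.05; edgeR and DESeq2 called 0). The median was -0.11 in gp91phox-/- and -0.0061 in p47phox-/-.

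Markers of other cell types were read beside these values, since the RNA is from a sorted bulk population and fewer cells of a type cannot be told apart from less RNA per cell. The shares of all genes called, given with the gene lists above, apply to the marker counts as well. All 12 B cell markers were lower in gp91phox-/- than in WT and than in p47phox-/-, and none was at 0 in every library of a genotype. They summed to 3473 to 4864 normalized counts in gp91phox-/- libraries, 18911 to 31028 in p47phox-/- libraries and 20616 to 37781 in WT libraries. Cd79a, a chain of the B cell receptor, averaged 10.3 in gp91phox-/-, 3024 in p47phox-/- and 3640 in WT libraries. In p47phox-/- limma called 0 of the 12 B cell markers (0 at an unadjusted p under 0.05, and 0 by edgeR and DESeq2). The gp91phox-/- libraries were thus lowest in these markers, as they were in Heg1 and Adam23, and the part of the B cell markers in those results was not tested. Conventional dendritic cell markers moved likewise: 4 of 10 were lower in gp91phox-/- than in WT and 5 of 10 than in p47phox-/-, with sums of 2789 to 3165, 6154 to 7906 and 5110.3 to 8596 in gp91phox-/-, p47phox-/- and WT libraries. Of 9 plasma cell markers, 4 were lower in gp91phox-/- than in each other genotype. Markers of monocytes, plasmacytoid dendritic cells, T and innate lymphoid cells, and enteric glia had 1 gene each called as lower in gp91phox-/- than in WT, of 8, 7, 9 and 5 tested. None of them was called as higher. At a limma unadjusted p under 0.05, 2, 1, 0 and 1 were higher and 2, 2, 2 and 1 lower, in the same order. In p47phox-/- against WT, the monocyte marker F13a1 and the plasmacytoid marker Siglech were called as higher, and 0 in these lists as lower.

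The endothelium, where Heg1 is best known, was read through 15 markers, which summed to 4988 to 8194 normalized counts in gp91phox-/- libraries, 6450 to 11727 in p47phox-/- libraries and 5683 to 10915 in WT libraries. These ranges overlapped, and their median log2 fold changes were -0.75 in gp91phox-/- and -0.72 in p47phox-/-. Pecam1, which macrophages also express, passed as lower in p47phox-/- than in WT (1414 in p47phox-/- libraries, against 3607 in WT libraries; log2 -1.32, limma adjusted p = 0.047). That call was lost without any 1 library other than p47phox-/- replicate 2 or WT replicate 2, with adjusted p up to 0.193 without WT replicate 3. Without p47phox-/- replicates 2 and 3 together the Pecam1 fold change was log2 -1.30. In gp91phox-/- limma called 0 of the 15 (2 lower at an unadjusted p under 0.05; edgeR called 0 and DESeq2 1). Against WT, fibroblast and smooth muscle markers went the other way, with 2 of 13 higher in gp91phox-/- and 3 of 13 higher in p47phox-/- than in WT. At a limma unadjusted p under 0.05, 4 were higher in gp91phox-/- and 10 in p47phox-/-. DESeq2 called 4 and 8 as higher, and 0 were lower by either measure. Their median log2 fold changes were 0.28 in gp91phox-/- and 0.80 in p47phox-/-. Their sums were 10679 to 12829 in gp91phox-/- libraries, 12898 to 19887 in p47phox-/- libraries and 7570.2 to 10076 in WT libraries. Between the knockouts, 3 of the 13 (Col6a1, Dcn and Myh11) were lower in gp91phox-/- than in p47phox-/-, with a median log2 difference of -0.50, the direction of Heg1 and Adam23. Of 12 epithelial markers, Cdh1 and Krt20 were higher in gp91phox-/- than in p47phox-/-, with a median of 0.95. The part of these markers in the results for the 6 genes was not tested.

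**Figure D4:**
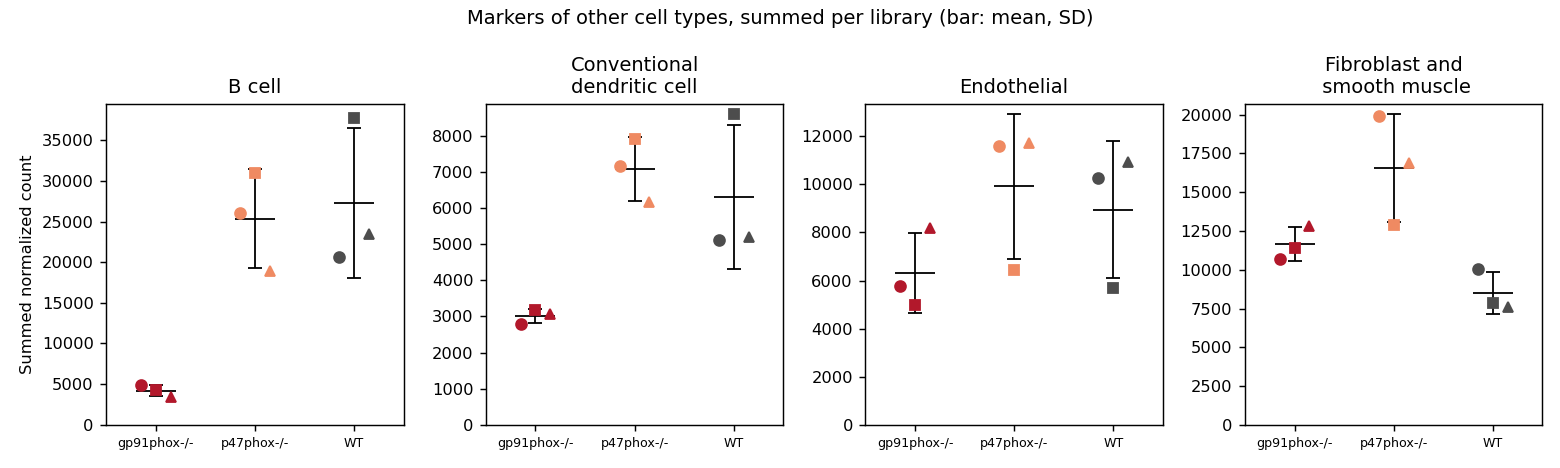
Summed normalized counts (vertical axes, linear and starting at 0) of marker lists for B cells, conventional dendritic cells, endothelium, and fibroblasts with smooth muscle, in each gp91phox-/-, p47phox-/- and WT library, with the mean and SD as bars. The gp91phox-/- libraries are lowest for B cell markers, at 4864 or less, and for dendritic cell markers, at 3165 or less, and overlap both other genotypes for endothelial markers.

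The genes whose values most resembled each of the 6 over the 9 libraries were found by Pearson's r of log2(normalized count + 1), given as a description, since the libraries share genotypes. Tmem26 was most like Angptl4, a secreted inhibitor of lipoprotein lipase (r = 0.977), Atg9b (0.956) and Epb41 (0.939). Angptl4 averaged 108 normalized counts in gp91phox-/-, 86.6 in p47phox-/- and 416 in WT libraries. Abcb1a was most like Atg9b (0.957), Rusc1 (0.956) and Slc35b1 (0.949), so Atg9b, an autophagy membrane protein, stood near both it and Tmem26. Cyfip2 was most like LOC73899 (0.946), Erc1 (0.938) and the immunoglobulin segment Ighv6-3 (0.936).

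Heg1 was most like Itpr3, an inositol trisphosphate receptor (r = 0.989), the immunoglobulin heavy chain gene Ighg2b (0.985) and the transcription factor Foxo1 (0.982). Ighg2b averaged 64.4 normalized counts in gp91phox-/-, 1050 in p47phox-/- and 3891 in WT libraries. Itpr3 averaged 583 in gp91phox-/-, 1119 in p47phox-/- and 1633 in WT libraries. Adam23 was most like Prune1 (0.985), Smco4 (0.964) and Ube2v1 (0.962), and Bspry was most like Macroh2a1 (0.950), Pgp (0.947) and Abca7 (0.931). Among the 6 genes themselves, r ran from 0.446 for Abcb1a with Heg1 to 0.939 for Tmem26 with Abcb1a over 15 pairs.

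The genes next to the 6 on the chromosome were examined, a set chosen after values had been seen. Of the 12 nearest tested protein-coding genes, 1 on each side, limma called 1 in p47phox-/- against WT, Rundc3b, on the opposite strand 37.1 kb before the GENCODE start of Abcb1a (53.1 normalized counts in gp91phox-/-, 20.0 in p47phox-/- and 91.3 in WT libraries). Its log2 fold change was -2.14 in p47phox-/- (adjusted p = 0.0299) and -0.75 in gp91phox-/- (adjusted p = 0.333). The first was lost without gp91phox-/- replicate 1 (0.0536), 2 (0.0662) or 3 (0.0571), or WT replicate 1 (0.0598), 2 (0.0893) or 3 (0.151). Without p47phox-/- replicates 2 and 3 together the Rundc3b fold change was -2.10 in p47phox-/-. By the RefSeq start, Abcb1a overlaps Rundc3b over 55.9 kb. Apart from Rundc3b, no neighbour of the 6 passed as lower in either knockout than in WT.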

How the data were processed

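RNA was extracted from the sorted macrophages with a Qiagen kit and read from both ends on a NovaSeq, per the labels' protocols. Reads were demultiplexed with bcl2fastq 2.19, trimmed with Cutadapt, aligned to mm10 with STAR 2.5.2b and counted with featureCounts, per the labels' protocols, and DESeq2 is named in the submitters' processing notes. The table deposited by the authors holds 1 signal per gene and library, the reads on the gene over that library's size factor (a normalized count). The strand and annotation counted are not given in the sources used here. Whole reads were recovered from 100% of values (tolerance 0.01), with size factors of 1.05 to 1.66. No per-sample column was left unused.

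Values were transformed to log2(normalized count + 1), so fold changes understate those of low genes. The 14404 genes that reached 10 normalized counts in 3 or more libraries were fitted with limma 3.58.1 (R 4.3.3), with 1 fit of the 3 genotypes, an empirical Bayes trend and Benjamini-Hochberg adjustment over all genes, and called where the adjusted p was under 0.05. Tests set gp91phox-/- against WT, p47phox-/- against WT and gp91phox-/- against p47phox-/-. A mean or SD is over the 3 libraries of a genotype. Steps were tested on simulated data. The 6 genes and all lists were chosen with earlier results of these data known. Named besides the 6 were list genes called in any comparison, the closest relatives, the 3 genes most alike per gene (mean of at least 50), and the 3 on each side of the threshold; marker genes, Angptl4, Itpr3, Foxo1 and chromosomal neighbours were chosen with their values known. One result for a neighbouring gene is not reported here. Gene positions are from GENCODE (GRCm38), matched by symbol, and 36134 of 42454 symbols matched RefSeq. Alternatives were pseudocounts of 0.5 and 5, no filter, a mean of at least 50, TMM scaling, only the groups compared, a replicate block, no trend, DESeq2 1.42.0 and edgeR 4.0.16 on the whole reads, each library left out, and p47phox-/- replicates 2 and 3 left out together.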

Additional observations from a re-analysis of the deposited data

Results flagged for a closer look

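The effect on Heg1 differed between the knockouts. The gp91phox-/- effect minus the p47phox-/- effect, both against WT, was -2.16 on the log2 scale, with no overlap between the gp91phox-/- and p47phox-/- libraries. For Adam23 the same difference was -0.95, also without overlap. Both are the direct limma test of gp91phox-/- against p47phox-/-, at adjusted p = 0.000827 for Heg1 and 0.0307 for Adam23. With 1 library left out, the limma adjusted p of Adam23 ran from 0.0265 to 0.13. The difference in B cell markers between the same libraries is given in the results, and its part in both genes was not tested.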

How the results depend on the processing

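The log2 fold changes of the 6 genes in the 3 comparisons were recomputed under 20 alternatives each, which gave 360 values, of which 358 kept their sign. The 2 that reversed were Cyfip2 in gp91phox-/- versus p47phox-/-, at 0.034 without gp91phox-/- replicate 1 and 0.023 without p47phox-/- replicate 1 (lowest with 1 library left out -0.22). Of the relatives in p47phox-/- versus WT, Abcb1b ran from -0.11 (without WT replicate 2) to 0.34 and Abcb4 from -0.24 (without WT replicate 3) to 1.07 with 1 library left out, none of them called. Abcb4 passed as lower in gp91phox-/- than in WT by DESeq2 (-2.20, adjusted p = 0.0379) and without WT replicate 3 (-2.62, adjusted p = 0.0458). The count of genes called in p47phox-/- versus WT was 162, but 101 with only the groups compared, 52 with no trend, 678 by DESeq2, 16 without p47phox-/- replicates 2 and 3 together, and 47 (without WT replicate 3) to 235 (without p47phox-/- replicate 1) with 1 library left out. In gp91phox-/- versus WT it was 1016, but 596 with no trend, 1771 by DESeq2 and 520 (without gp91phox-/- replicate 2) to 1543 (without p47phox-/- replicate 2) with 1 left out. In gp91phox-/- versus p47phox-/- it was 1430, but 898 with no trend, 2276 by DESeq2, 441 without p47phox-/- replicates 2 and 3 together, and 761 (without gp91phox-/- replicate 2) to 1661 with 1 left out. TMM scaling changed its split to 873 higher and 705 lower genes, beside 572 and 858. The replicate numbers did not pair the libraries (r of deviations -0.040 to 0.076 over 9 pairs, 5 of 9 libraries closest to their own number). With a replicate block the counts were 127, 877 and 1238, in the order of comparisons above, and 2 of the 6 genes passed in p47phox-/-, in place of 3. Adam23 in gp91phox-/- versus p47phox-/- did not pass with only the groups compared (adjusted p = 0.0588) or no trend (0.0662). The causes were not tested. With 3 libraries per genotype, precision was lowest for Bspry, whose interval between the knockouts runs from -0.33 to 1.52.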
